A study of Mus musculus with 2 samples.

Results

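The genes described here are 9 genes of the neural lineage, Sox1, Nes, Pax6, Pax3, Zic1, Neurog2, Sox11, Tubb3 and Gad1, taken by name from the table of 30774 gene identifiers measured in mouse embryonic stem cells (mESCs). Each has 1 identifier. The array experiment compared B6 mESCs (strain B6, source inner cell mass of the E3.5 embryo) grown in serum medium with LIF, a cytokine acting through Stat3, with the same cells given LIF plus CHIR99021 (CHIR), a small molecule that blocks GSK3 and so turns on Wnt/β-catenin signaling. Treatment lasted 12 h, and LIF and serum were common to both conditions. The labels name B6 mESCs, whereas the flow chart of the study names 46C ESCs for the same comparison. The labels do not give the dose of CHIR. Total RNA was hybridized to Illumina beadchips, with 1 array per condition. Differences between the conditions therefore have no error and were not tested.

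mESCs can enter the neural lineage when self-renewal signals are withdrawn, and neural genes are therefore read as markers of early differentiation in such cultures. Sox1 is a transcription factor of the neural plate, and Nes encodes nestin, the intermediate filament protein of neural progenitors. Pax6, Pax3 and Zic1 are transcription factors that pattern the neural tube and its dorsal border. Neurog2 is a proneural bHLH factor that commits progenitors to the neuronal fate, Sox11 acts in immature neurons, Tubb3 encodes the neuronal β-tubulin, and Gad1 encodes an enzyme that makes the transmitter GABA. Wnt signaling acts through Tcf/Lef factors, which bind DNA motifs with the core CTTTG.

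In short, Gad1 and Nes were detected with CHIR and not in LIF, and the other 7 genes were detected on neither array at a detection p-value under 0.01. Sox11 and Tubb3 had nearly the same signal on both arrays. Pax6, Pax3, Zic1 and Neurog2 had signals close to or below 0. Sox1 moved from below 0 to a signal still within the range of the negative controls. In these bulk samples, more cells with a transcript and more transcript per cell cannot be told apart.

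The promoters of Gad1 and Nes, the genes detected with CHIR, and of Sox11, the gene with a large signal in both conditions, are shown because the treatment acts through Tcf/Lef factors. They are the 250 bases before the gene start in RefSeq (build GRCm38.p6), read 5′ to 3′ on the strand of the gene, with matches to CTTTGA or CTTTGT on either strand in capitals. The Gad1 promoter lies at chr2:70561879-70562128 on the plus strand, that of Nes at chr3:87970843-87971092 on the plus strand, and that of Sox11 at chr12:27342719-27342968 on the minus strand. The array files name no genome build, and no position was carried over from them.
Gad1: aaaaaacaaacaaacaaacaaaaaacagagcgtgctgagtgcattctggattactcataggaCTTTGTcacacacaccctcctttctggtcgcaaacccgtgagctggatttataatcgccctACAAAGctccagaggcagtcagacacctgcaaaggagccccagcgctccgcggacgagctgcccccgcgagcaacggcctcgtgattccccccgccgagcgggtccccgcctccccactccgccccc
Nes: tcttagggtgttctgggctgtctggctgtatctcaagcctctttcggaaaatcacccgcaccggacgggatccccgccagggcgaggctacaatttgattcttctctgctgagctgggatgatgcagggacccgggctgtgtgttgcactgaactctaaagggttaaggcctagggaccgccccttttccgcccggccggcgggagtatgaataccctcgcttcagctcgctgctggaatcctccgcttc
Sox11: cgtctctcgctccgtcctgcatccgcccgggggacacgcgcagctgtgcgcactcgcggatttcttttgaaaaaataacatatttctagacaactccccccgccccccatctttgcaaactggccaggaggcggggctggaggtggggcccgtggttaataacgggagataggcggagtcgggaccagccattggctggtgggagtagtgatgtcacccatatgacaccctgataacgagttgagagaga

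Gad1 held 2 matches, both to CTTTGT, one at position -188 from the gene start on the strand of the gene and the other at -127 on the opposite strand (letters ACAAAG). Nes and Sox11 held no match to CTTTGA or CTTTGT in this window. Other forms of the core CTTTG were not searched. The printed promoters of Sox11 (ctttgc) and Gad1 (gcaaag, on the opposite strand) hold such a form. RefSeq promoters were found by symbol for 8 of the 9 genes (Sox1, Nes, Pax6, Zic1, Neurog2, Sox11, Tubb3 and Gad1), 9 promoters in all because Pax6 has 2. Besides Gad1, 1 of the Pax6 promoters held a match. Over all 32851 promoters of the table, 27.6% held at least 1 match, 13.8% for CTTTGA and 16.5% for CTTTGT. The G and C content of the 3 printed promoters was 58.0% for Gad1, 58.8% for Nes and 58.0% for Sox11, beside a median of 52.4% over all promoters.

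Signals were deposited on a linear scale after background subtraction, so that a signal near 0 equals the background. The detection p-value is the share of negative control beads that were at least as bright. With 0.01 as the limit for this p-value, detection reached 9021 identifiers (29.3%) in LIF and 9174 (29.8%) with CHIR. Among the 9 neural genes, detection reached 0 in LIF and 2 with CHIR. The step of the p-values gives 936 negative controls. Identifiers measured by several probes carry 1 averaged signal and 1 combined p-value. Of 7419 such identifiers, 98.8% had p-values on both arrays that matched the sum of the p-values of a whole number of probes, and that number is given below for each gene. It was read back from the p-values and is not stated in the files.

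**Figure D1:**
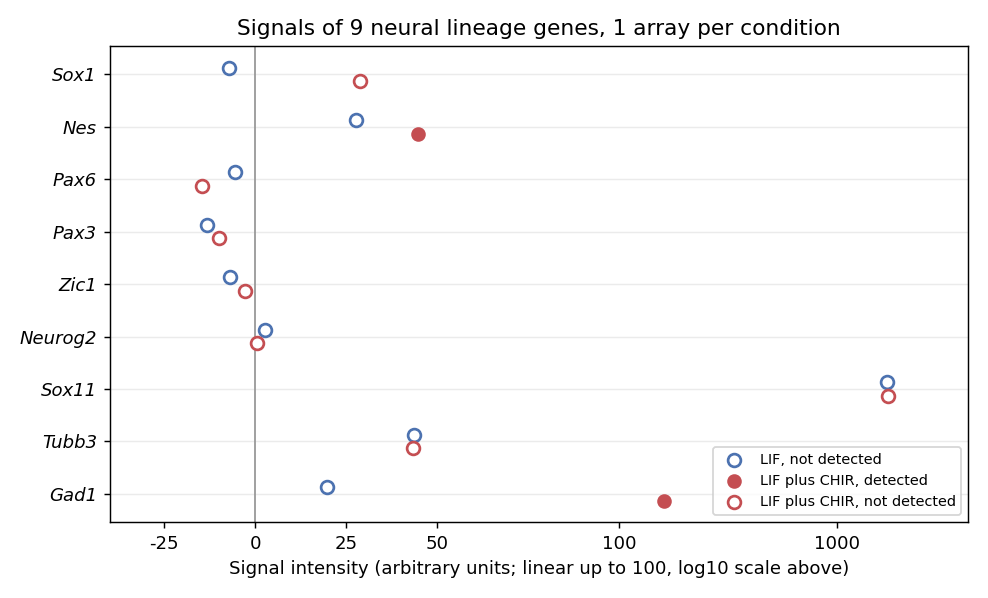
Signal intensity (arbitrary units, linear up to 100 and log10 above) of the 9 genes in LIF (blue) and LIF plus CHIR (red), 1 array each. Filled circles are detected at a detection p-value under 0.01, and only Nes (44.8) and Gad1 (161.4) in LIF plus CHIR are filled.

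Among the progenitor genes, Sox1 (1 probe) had a signal of -7.23 in LIF and 28.9 with CHIR. In LIF 565 of the 936 controls were at least as bright (a detection p-value of 0.604), and with CHIR 60 were (0.0641). Sox1 was thus detected on neither array, and no fold change is given. The difference of 36.2 lay outside the range of -16.6 to 15.7 that held the central 95% of differences over the 15569 identifiers with 1 probe detected on neither array. Of 15925 identifiers with 1 probe that were not detected in LIF, 55 (0.345%) had a signal higher by at least as much with CHIR. In the other direction, 42 of 15754 not detected in LIF plus CHIR (0.267%) were lower by at least as much.

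Nes, on chromosome 3 (band 3qF1 in the array annotation), had a signal of 27.7 in LIF and 44.8 with CHIR, averaged over 2 probes. Its detection p was 0.0139 in LIF and 0.000868 with CHIR. The mean p of the 2 probes read back from these values was 0.0833 and 0.0208. The ratio of the measured signals was 1.62 (log2 difference 0.69), just above the limit of 1.5-fold that the study applied. This ratio uses the LIF signal as measured, which was not detected and was not raised to a minimum. The LIF signal itself was above the lowest detected signal of identifiers with 2 probes (27.0), and the CHIR signal was below the lowest detected one of 1-probe identifiers in LIF (51.9), against which no fold could be given. After normexp correction, which models the background, the log2 difference was 0.44, or 1.35-fold, under the limit. Of the 750 detected identifiers with 2 probes, 7.20% were higher with CHIR by 1.5-fold or more. Of 941 detected identifiers whose brighter signal was within 1.5-fold of that of Nes, 3.61% passed 1.5-fold higher, 2.55% passed 1.5-fold lower, and 2.66% had a log2 difference at least that of Nes. Identifiers with 1 probe among them could not pass 1.5-fold in either direction. Their signals were counted at no less than 51.9 in LIF and 47.1 with CHIR. These 3 shares are therefore too low to serve as a reference for Nes.

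Pax6 (band 2qE3, 2 probes), a regulator of forebrain and eye progenitors, had a signal of -5.58 in LIF and -14.6 with CHIR, with detection p-values of 0.678 and 0.98. The mean p of its probes was 0.599 and 0.901, so that on average most negative controls were brighter than its probes. Pax3 (chromosome 1, band 1qC4, 1 probe), a gene of the dorsal neural tube and neural crest, had -13.3 in LIF and -9.83 with CHIR. For Pax3, 813 of the 936 controls were at least as bright in LIF and 666 with CHIR. Zic1 (chromosome 9, band 9qE3.3, 1 probe) had -6.85 and -2.87, with 547 and 421 controls at least as bright. Neurog2 (chromosome 3, band 3qG2, 2 probes) had 2.71 in LIF and 0.448 with CHIR, with detection p-values of 0.255 and 0.384. None of these 4 genes was distinguishable from the background in either condition. Their differences between the arrays, from -9.0 for Pax6 to 3.98 for Zic1, lay inside the central 95% of differences given above for undetected identifiers with 1 probe.

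Sox11 (chromosome 12, band 12qA2) had a signal of 1701 in LIF and 1707 with CHIR, averaged over 3 probes. The ratio of the signals was 1.0 (log2 0.01), and the signals differed by 6.11 units. Both signals exceeded 92.1% of all identifiers on their array, yet the detection p was 0.0351 in LIF and 0.0266 with CHIR, and Sox11 missed the limit on both arrays. Read back, the mean p of its 3 probes was 0.198 and 0.181, so at least 1 probe had a p-value of that size or larger and lay within the negative controls. The averaged signal of Sox11 therefore came from at most 2 of its probes, as far as the p-values were read back correctly. Of 158 identifiers with 3 probes and a signal of 1000 or more on both arrays, 72 (45.6%) were likewise not detected on either. Among 2773 such identifiers with 1 probe there were 0, which was fixed in advance because their detection follows from the signal itself.

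Tubb3 (chromosome 8, band 8qE1, 1 probe), the tubulin used to stain neurons, had a signal of 43.8 in LIF and 43.3 with CHIR. The ratio was 0.989 (log2 -0.02). In LIF 21 of the 936 controls were at least as bright (a detection p-value of 0.0224), and with CHIR 16 were (0.0171). Tubb3 thus passed a limit of 0.05 on both arrays and missed 0.01 on both. It showed almost the same signal in the 2 conditions, close to the minimum at which 1-probe identifiers were detected (51.9 in LIF, 47.1 with CHIR).

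Gad1 had the largest difference of the 9 genes, with a signal of 19.8 in LIF and 161.4 with CHIR. Its detection p was 0.222 in LIF and 0.00357 with CHIR. The ratio of the measured signals was 8.15 (log2 difference 3.03). This ratio uses the LIF signal as measured. That signal was not detected, but it exceeded the lowest detected one of identifiers with several probes (15.1), so that it was not raised. It also exceeded the lowest detected one of identifiers with 4 probes (17.8). Set against the higher minimum of 1-probe identifiers in LIF (51.9), Gad1 was at least 3.11-fold higher (log2 1.64), and by that minimum 2.68% of all detected identifiers passed 1.5-fold higher. Normexp correction gave 4.59-fold (log2 2.20). Of 1641 detected identifiers whose brighter signal was within 1.5-fold of that of Gad1, 4.51% passed 1.5-fold higher and 5.18% passed 1.5-fold lower. A log2 difference of 3.03 or more was found for 1 of them (0.0609%), which was Gad1 itself, but undetected 1-probe identifiers among them were raised to a higher minimum than Gad1. With that minimum Gad1 was at 1.64 and no longer had the largest difference among them. Of the 376 detected identifiers with 4 probes, 1.60% passed 1.5-fold higher.

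The p-values of Gad1 matched 4 probes, or 9. Among all identifiers 667 matched 4 probes alone and 5 matched 9 alone. With 4 probes, the mean p of the Gad1 probes was 0.389 in LIF and 0.112 with CHIR (0.426 and 0.241 with 9), so at least 1 probe stayed within the negative controls also with CHIR. The averaged signal of 161.4 would amount to 645.6 summed over 4 probes, against 79.2 in LIF. How this sum was spread over the probes is not given in the tables used here. The annotation of Gad1 and Sox1 on the array came from the MEEBO oligonucleotide collection, with no Entrez gene number or chromosome, whereas that of the other 7 genes came from RefSeq.

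**Figure D2:**
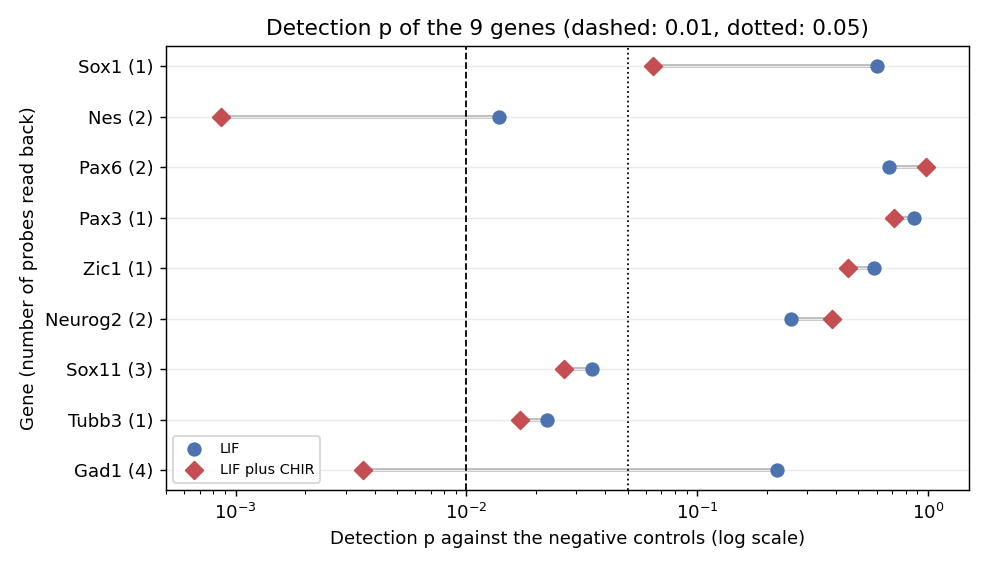
Detection p-value (log scale) of the 9 genes in LIF (blue circles) and LIF plus CHIR (red diamonds), with the number of probes read back in brackets. Gad1 (0.222 to 0.00357) and Nes (0.0139 to 0.000868) cross the dashed limit of 0.01, Sox1 approaches the dotted limit of 0.05 (0.604 to 0.0641), and the other 6 genes stay on 1 side of both limits.

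Of the 9 genes, only the 2 that were detected, Nes and Gad1, had a fold change. Both passed the 1.5-fold limit upward with CHIR and 0 downward. They had a fold change only because they were detected with CHIR, so the upward direction was nearly set by that filter. Over all 9615 detected identifiers, 288 (3.0%) passed it upward and 304 (3.16%) downward, with a median log2 difference of 0.00. Nes and Gad1 were both detected in LIF plus CHIR and not in LIF, as were 594 of all 30774 identifiers (1.93%), and 441 (1.43%) were detected in LIF alone. The share of the 594 that passed 1.5-fold upward was not counted, and the 3.0% is no matched reference for Nes and Gad1. With detection required on both arrays, 203 identifiers passed upward and 227 downward. The remaining 7 genes were detected on neither array, as were 68.8% of all identifiers. Since the 9 genes were chosen with results of these arrays known, these shares describe the genes and test nothing. With 0.05 as the limit of detection, 4 of the 9 genes were detected, namely Nes, Sox11, Tubb3 and Gad1, and 4.09% of the identifiers detected at that limit passed the fold limit upward.

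**Figure D3:**
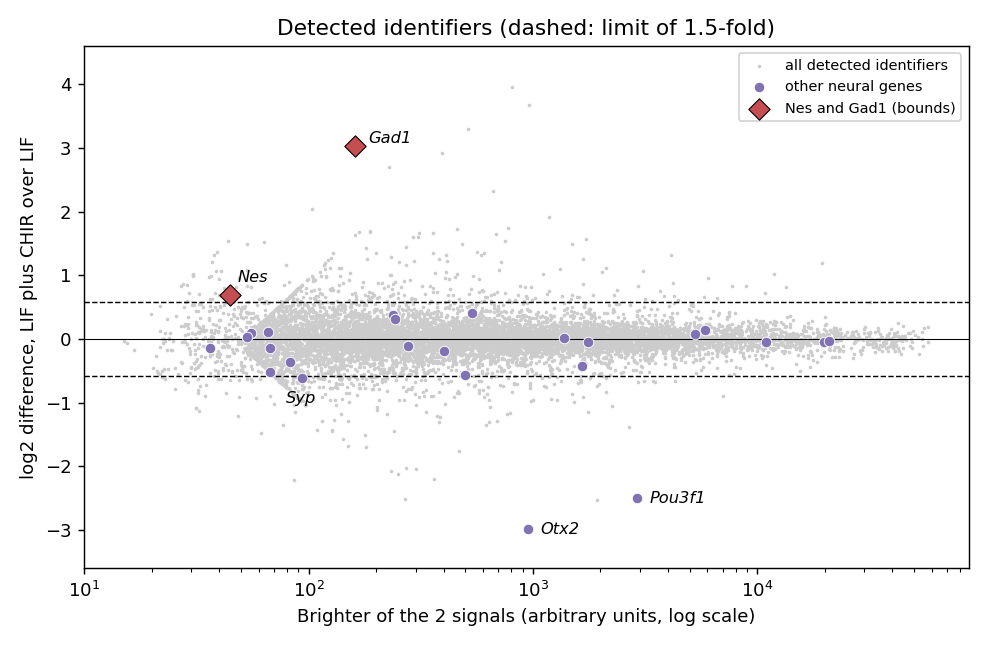
Log2 difference of LIF plus CHIR over LIF against the brighter of both signals (log scale) for the detected identifiers (grey), Nes and Gad1 (red diamonds) and other neural genes (purple). The legend calls Nes and Gad1 bounds because their LIF signals were not detected, but both are drawn at the ratio of measured signals. Gad1 is drawn at 3.03, from its measured LIF signal (1.64 with the minimum of 1-probe identifiers), Nes (0.69) lies just above the dashed limit of 1.5-fold among dim identifiers, and Otx2 (-2.98) and Pou3f1 (-2.49) lie at the lower edge.

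The 9 genes were set beside 85 other genes of the neural lineage, all of which had an identifier on the array. Of these, 24 were detected on at least 1 array. With CHIR 0 of them passed 1.5-fold upward and 3 downward (Otx2, Pou3f1 and Syp). Their log2 differences ran from -2.98 to 0.40, with a median of -0.05 beside 0.00 for all detected identifiers. None of the 24 had a difference as large upward as Gad1 or Nes.

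Of 28 neural plate and progenitor genes, 6 were detected, with a median log2 difference of -0.21. Otx2, a homeobox gene of the epiblast and anterior neural plate, had a signal of 947.4 in LIF and 119.7 with CHIR. It was 7.91-fold lower with CHIR (log2 -2.98), the lowest value of all detected identifiers. Pou3f1, a POU factor of the late epiblast and early neural cells, had 2902 and 516.2, or 5.62-fold lower (log2 -2.49). Both are also genes of the post-implantation epiblast, and both were detected on each array with 0 of the controls as bright. The other detected genes differed by less than 1.5-fold. The homeobox gene En2 had 183.2 and 238.2 (log2 0.38), Zic2, a relative of Zic1, had a log2 difference of -0.36, and Gbx2 had -0.05.

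Sox2, a pluripotency factor that neural progenitors keep, had a signal of 441.2 in LIF and 400.2 with CHIR (log2 ratio -0.14). Like Sox11, it missed the detection limit, with combined p-values of 0.0503 and 0.276 over 2 probes. The intermediate filament gene Vim, a partner of nestin in progenitors, had 658.7 and 828.6 (log2 ratio 0.33) and combined p-values of 0.28 and 0.273. For Sox2 with CHIR and for Vim on both arrays at least 1 of the 2 probes had a p-value of 0.369 or more. Sox3, the relative of Sox1 in the same subfamily, had 18.8 in LIF and 23.3 with CHIR and was detected on neither array.

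Of 9 neural plate border and crest genes, 0 were detected on either array. Of 8 proneural bHLH genes related to Neurog2, 1 was detected, Neurog3, with a signal of 67.6 in LIF and 24.4 with CHIR, where it was not detected. Neurog3 was at least 1.44-fold lower with CHIR (log2 -0.52). The ratio of its signals was larger (log2 -1.47), so that its value depends on the minimum set for an undetected signal. Neurog1 (18.3 and 9.08) was detected on neither array, as was Neurog2.

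Of 18 neuron genes, 6 were detected, with a median log2 difference of -0.16. Sox4, the relative of Sox11, had 495.8 in LIF and 335.5 with CHIR (log2 -0.56), and Sox12, the remaining member of that subfamily, had 401.8 and 351.9 (log2 -0.19). Syp, a protein of synaptic vesicles, had 93.4 and 61.1, or 1.53-fold lower (log2 -0.61), which became 0.51 lower on the log2 scale after normexp correction and then missed the limit. Ina, a neuronal intermediate filament, had 403.2 and 533.3 (log2 0.40). Stmn2, a microtubule regulator of growing axons, had 5008 and 5277 (log2 0.08). Dcx, a marker of young neurons, had 1.09 and -2.43 and was detected on neither array.

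Of 7 other genes of GABA synthesis, transport and interneuron identity, 3 were detected and 0 passed 1.5-fold. Gad2, the second gene for the enzyme family of Gad1, had -10.7 in LIF and -19.5 with CHIR. Slc32a1, which loads GABA into vesicles, had 43.7 and 55.4. It was detected with CHIR alone and lay near the lowest detected signal, with a log2 difference of 0.09 against it. Aldh5a1, which acts at a later step of the breakdown of GABA, had 196.0 and 242.4 (log2 0.31). It was detected in LIF alone (detection p-values of 0.00456 and 0.0259), although its signal was higher with CHIR. The interneuron factors Dlx1 (-24.5 and -15.4) and Dlx2 (-3.69 and -3.03) were not detected.

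Of 7 other β-tubulin genes, 5 were detected, with log2 differences from -0.15 to 0.14. Tubb5, the widely expressed isotype, had 20967 in LIF and 20459 with CHIR (log2 -0.04). It was detected with CHIR alone (detection p-values of 0.0252 and 0.00462 over 2 probes). Tubb2b had 5311.5 and 5863.5 (log2 0.14). Like Tubb3 (log2 ratio -0.02), these genes had nearly equal signals in both conditions. Of 8 glia genes, 3 were detected, with a median of -0.05. Slc1a3, a glutamate transporter of radial glia, had 1648 and 1228 (log2 -0.42), and Gfap, the filament of astrocytes, had -1.07 and -1.03.

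**Figure D4:**
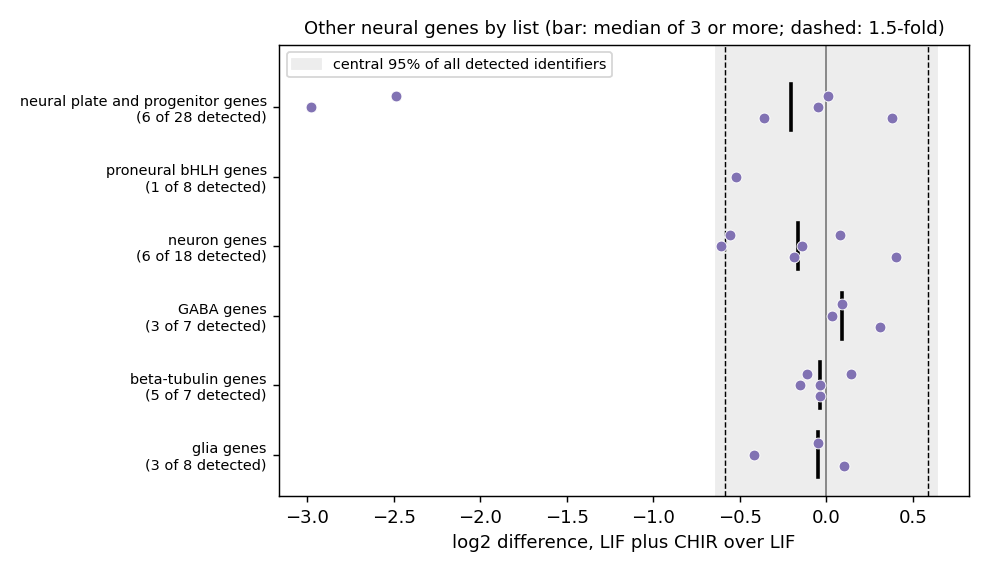
Log2 difference of LIF plus CHIR over LIF for each detected gene of 6 neural lists (points), with the median of lists of 3 or more (bar), the central 95% of all detected identifiers (grey, -0.64 to 0.64) and the 1.5-fold limits (dashed). Most genes lie inside the grey band, and Otx2 and Pou3f1 of the progenitor list lie far below it.

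As a check of the cell type, 7 of 8 pluripotent cell markers were detected on each array. Their summed signal was 91163 in LIF and 90946 with CHIR, most of it from Dppa5a (57706.3 and 55731.5). Pou5f1 had 12346 and 11309, Nanog had 1660 and 2429, and Tdgf1 was not detected. Of the 7 detected markers, 4 were higher with CHIR and 3 lower, from log2 -0.49 (Utf1) to 0.58 (Klf4). Of 5 fibroblast markers, 0 were detected on either array, with 3 at or below 0 on each and a summed signal of 225.5 and 211.4, most of it from Thy1 (222.3 and 225.3, not detected). Of 5 endoderm markers 1 was detected (Sox7, log2 0.36). Of 5 primitive streak markers, 2 were detected, both with CHIR alone, where T had 394.5 against 8.05 in LIF and Gsc had 63.7 against 12.5. The summed signal of that list was 1.02 in LIF and 479.1 with CHIR, and of 4 trophoblast markers Cdx2 alone was detected, with CHIR (23.6 and 93.5). These markers were higher on the same array as Gad1 and Nes, and their part in those values was not tested. Of 5 listed feedback genes of the Wnt pathway, 3 were detected, all at least 1.5-fold higher with CHIR, in the direction of the label. Axin2 had 314.1 and 1178 (log2 1.91), Sp5 had 48.8 and 809.5, and Tcf7 had 27.5 and 46.0. Nkd1 (12.9 and 10.9) and Lef1 (21.4 and 8.84) were not detected and had lower signals with CHIR.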

How the data were processed

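The 2 arrays, 1 per condition, were compared (LIF, LIF plus CHIR), grouped by sample title. Linear, background-subtracted signal intensity was deposited by the authors, summarised to 1 value per identifier, with a detection p-value for each; software and normalization are not given in the sources used here. The table described as normalized held the same values (0 shared values differed). The number of beads is unknown, and the number of arrays limits the precision.

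An identifier was detected at a detection p-value under 0.01, and counted in fold changes if detected on at least 1 array. An undetected signal was raised to the lowest detected signal of its array among identifiers of its kind (1 probe: 51.9 in LIF, 47.1 in LIF plus CHIR, several probes: 15.1 and 14.8) where it was lower, and 112 identifiers whose raised signal exceeded the detected one got no fold. The numbers of probes were read back from the p-values as sums over probes (exact distribution up to 3 probes, normal approximation above, tolerance 0.03 steps), with 99.4% of 1800 simulated identifiers recovered. Of 200 simulated 3-fold changes among 30774 identifiers, 100% passed 1.5-fold. A 3-fold change passes that limit by its size, so this checks the calculation only. The simulated probe numbers used the same rule that was then inverted, so the rule itself was not checked. List genes were matched by identifier (121), Entrez gene number (3) or synonym (1) through RefSeq. Named genes were the 9 genes, detected genes of the neural lists and the cell type markers. Undetected genes of the lists were named after their values were seen. Some list genes are counted but not reported here by name. The 9 genes and all lists were chosen with earlier results of these data known. Alternatives were quantile normalization, median scaling, normexp correction (limma 3.58.1, R 4.3.3, offset 16), detection limits, minimum signals and a limit of 2-fold. Python 3.11.15, pandas 2.3.3, numpy 2.4.6, scipy 1.17.1 and matplotlib 3.10.9 were used.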

Additional observations from a re-analysis of the deposited data

How the results depend on the processing

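No paired analysis was possible because there is only 1 array for LIF and 1 for LIF plus CHIR. The alternatives using the minimum of identifiers with 1 probe or with the same number of probes, and detection by signal, were chosen after seeing the data. At a detection p-value under 0.05, 4 of the 9 genes were detected, and with detection required on both arrays 0 were, so that Gad1 and Nes then had no value. The log2 difference of Gad1 (3.03) became 2.20 after normexp correction and 1.64 both with the minimum of identifiers with 1 probe and with detection by signal. That of Nes (0.69) became 0.44 after normexp correction, under 1.5-fold, and at a limit of 2-fold its 0.69 no longer passed. With the minimum of identifiers with 1 probe and with detection by signal Nes had no value, since its signal lay below that minimum. Gad1 and Nes were higher with CHIR under every alternative that gave them a value, but this is no independent check of the direction. Both were detected with CHIR alone, and an alternative whose raised LIF signal exceeded the CHIR signal gave no value. Over all identifiers, 288 were at least 1.5-fold higher and 304 lower. A detection p-value under 0.05 gave 479 and 519, and a limit of 2-fold gave 78 and 54. Under the alternatives run, no median of a neural list passed 1.5-fold. Single neural genes of the lists were followed only if detected in the main setting. Among these, Neurog3 passed 1.5-fold lower in 4 alternatives and Syp missed it in 2. En1, detected on both arrays only at a p-value under 0.05, had 20.1 in LIF and 48.9 with CHIR (log2 ratio 1.28, above 1.5-fold). Neurod2, likewise detected on both only at that limit, had 24.9 and 26.0 (log2 ratio 0.06). At that limit Irx3, Msx1, Olig2, Mapt and Mbp were detected in LIF alone, and Sox3 with CHIR alone. The signals of those in LIF alone were lower with CHIR (log2 ratios of -2.07, -1.96, -0.67, -0.13 and -0.52). That of Sox3 was higher (log2 ratio 0.31). These ratios had no minimum applied and are not the fold changes of that setting. The background SD fitted with normexp was 15.4 on each array, which limits the precision of signals near the negative controls.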

Other observations

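The combined detection p-value also set aside other bright identifiers with several probes. Of 228 identifiers with 2 probes and a signal of 1000 or more on both arrays, 149 (65.4%) were detected on neither at 0.01, of 158 with 3 probes 72 (45.6%), and of 134 with 4 probes 32 (23.9%). Of 2773 with 1 probe there were 0, as had to be, since their detection follows from the signal itself. Neural genes outside the 9 that were not detected by p-value but passed when detection was set by the signal of 1-probe identifiers on at least 1 array had log2 differences of -0.14 for Sox2, 0.33 for Vim, -0.13 for Mapt, 0.48 for Ngfr and 0.10 for Mtap2 (the identifier of Map2).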
